A study of Sus scrofa with 61 samples.

Results

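The genes described here are the matrix-remodelling enzymes MMP2, MMP9 and MMP14, their tissue inhibitors TIMP1, TIMP2 and TIMP3, and the collagen cross-linking oxidases LOX, LOXL1 and LOXL2. They were found on the array by the gene name of each probe in the scanner files, or by the symbol that the study's gene lists give to a probe. The study selected the probes of those lists in these same data, through models with an interaction of age with genotype or parental breed. The brightest LOXL2 probe and a TIMP1 probe named after a RefSeq entry were found by those lists alone. Of these 9 genes, 8 had a named probe, out of 11152 named genes on the array, and no probe was named LOXL1. The 8 genes had 19 probes. Of these, 17 passed the filter on dim probes, and both probes that did not pass belong to MMP9.

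Expression was measured in the longissimus muscle of 61 male pig fetuses, taken by caesarean at day 90 or day 110 of gestation. LW fetuses were purebred Large White and MS fetuses purebred Meishan. LWMS fetuses had an MS sow and an LW boar, and MSLW fetuses had an LW sow and an MS boar. Each genotype had 8 fetuses at the earlier day. At the later day LW had 9, MS had 7, LWMS had 8 and MSLW had 5. Litters held fetuses of more than one genotype, since sows were inseminated with mixed semen, and the labels do not name the sow of a fetus. P-values therefore measure the spread between fetuses, some of which were littermates. All fetuses of a litter share the day and the sow, so differences by day or by sow's breed lie between litters. The spread between litters was not measured.

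Matrix metalloproteinases are zinc enzymes that cut the proteins outside the cell. MMP14 sits in the cell membrane and activates the secreted precursor of MMP2, a gelatinase, with TIMP2 as the bridge between them. MMP9 is the other gelatinase and is well known from neutrophils and macrophages. The TIMPs bind and block the active enzymes, and TIMP3 stays attached to the matrix while TIMP1 and TIMP2 are soluble. LOX and its relatives oxidise lysines of collagen and elastin, which then form the cross-links that make connective tissue stiff.

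Every probe was a 60-base oligonucleotide spotted as in the scanner files. The probes shown here are those on which differences between probes of one gene rest. For TIMP1, a pair of probes carried the same letters, and another carried nearly the same. Capitals mark the 56 bases that all of them share.
TIMP1 A_72_P444809: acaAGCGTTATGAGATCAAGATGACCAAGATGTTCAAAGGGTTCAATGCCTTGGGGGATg
TIMP1 O10493: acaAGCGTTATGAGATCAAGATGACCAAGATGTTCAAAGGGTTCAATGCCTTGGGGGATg
TIMP1 A_72_P223927: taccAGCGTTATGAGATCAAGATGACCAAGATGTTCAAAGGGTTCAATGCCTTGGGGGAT

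Over the 59 bases where A_72_P444809 and A_72_P223927 can be laid over each other, they differ by A3C, counted from the 5′ end of A_72_P444809. The other TIMP1 probes, A_72_P672674 and one named after a RefSeq entry, overlap each other by 58 bases with the single difference C36G, counted from the 5′ end of A_72_P672674. They share no run over 8 bases with those shown above.

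For TIMP2, LOX and MMP9, the probes printed next are those that moved otherwise than the brightest probe of the gene or stayed near background. The LOX probe holds 81.7% G and C, against 35% in each of the other LOX probes. The LOXL2 probe O9773 is shown because its results depend on a single array. No part of these is set in capitals.
TIMP2 A_72_P321983: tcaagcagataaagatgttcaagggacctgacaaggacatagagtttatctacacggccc
LOX O6098: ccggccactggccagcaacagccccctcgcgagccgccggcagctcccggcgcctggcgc
MMP9 A_72_P440951: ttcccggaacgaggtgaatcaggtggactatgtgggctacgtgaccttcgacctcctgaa
MMP9 O11977: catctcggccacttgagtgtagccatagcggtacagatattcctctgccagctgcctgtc
LOXL2 O9773: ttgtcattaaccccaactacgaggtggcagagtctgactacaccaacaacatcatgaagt

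Levels below are quantile-normalized log2 intensities, which order samples for a probe but not probes against each other. For each gene the brightest kept probe is the main probe, and differences are log2 differences from a limma fit to the 8 groups, called at an adjusted p under 0.01. Between 34346 and 45683 of 60305 probes were well above background per array, and 42436 were tested. Muscle fibre markers were bright on all arrays, with 9 of the 10 listed measured. One array stood apart. On the array of MSLW fetus 2 at day 90, 580 kept probes lay more than 3 log2 units below their group's median, against at most 43 on any other array. Among the member probes, LOX A_72_P400753 read 7.46 there, against 11.81 to 12.50 in the other MSLW fetuses of that day, and LOXL2 O9773 read 2.06 against 9.45 to 10.08. MMP2 A_72_P498888 read 13.41 against 14.18 to 14.79, and TIMP1 A_72_P444809 read 9.69 against 9.92 to 10.39. Where leaving out this array changed a call or an order, both results are given.

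MMP2 and MMP14 were lower at day 110 than at day 90 in all 4 genotypes. MMP2 read 14.91 ± 0.11 in LW (SD, n = 8, lowest 14.70, median 14.93, highest 15.05) and 14.90 ± 0.10 in MS (n = 8, lowest, median and highest 14.76, 14.94 and 15.02) at day 90. At day 110 it read 13.55 ± 0.21 in LW (n = 9, lowest 13.14, median 13.55, highest 13.86) and 13.34 ± 0.13 in MS (n = 7, lowest, median and highest 13.18, 13.37 and 13.53). The LWMS fetuses ranged from 14.66 to 15.06 at day 90 and from 13.38 to 13.62 at day 110, and the 5 MSLW fetuses of day 110 read 13.56, 13.35, 13.55, 13.21 and 13.50. Every fetus of day 90 was above every fetus of day 110. MMP2 fell by 1.36 in LW (SE 0.08), by 1.56 in MS (SE 0.08), by 1.38 in LWMS (SE 0.08) and by 1.55 in MSLW (SE 0.09), a 2.76-fold decrease over the genotypes, with adjusted p between 3.56e-24 and 1.58e-21.

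MMP14, the membrane-bound activator of MMP2, had 1 probe and fell most among the members in the averaged age difference. It read 14.44 ± 0.36 in LW (SD, n = 8, lowest 13.75, median 14.45, highest 15.00) and 14.78 ± 0.11 in MS (n = 8, lowest, median and highest 14.63, 14.75 and 14.94) at day 90. At day 110 the values were 13.08 ± 0.27 in LW (n = 9, lowest 12.54, median 13.05, highest 13.40) and 12.69 ± 0.08 in MS (n = 7, lowest, median and highest 12.58, 12.69 and 12.79). In MS the fetuses were tightly grouped on both days, and no fetus of day 90 came below the highest of day 110 in any genotype. The age difference was -1.36 in LW (SE 0.12), -1.80 in LWMS (SE 0.13), -1.62 in MSLW (SE 0.14) and -2.09 in MS (SE 0.13). All were called, and the fold was 2.57 in LW and 4.25 in MS.

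MMP9 went the other way. Its main probe read 8.22 ± 0.36 in LW (SD, n = 8, lowest 7.86, median 8.21, highest 8.88) and 8.22 ± 0.24 in MS (n = 8, lowest, median and highest 7.84, 8.25 and 8.51) at day 90. At day 110 it read 8.82 ± 0.22 in LW (n = 9, lowest 8.47, median 8.82, highest 9.29) and 9.28 ± 0.17 in MS (n = 7, lowest, median and highest 8.94, 9.31 and 9.48). The days overlapped in LW and did not in MS. MMP9 rose by 0.60 in LW (SE 0.12), by 1.06 in MS (SE 0.12), by 0.87 in LWMS (SE 0.12) and by 0.75 in MSLW (SE 0.14), and it was higher at day 110 on 8 of 8 slides. The rise rests on 1 probe. The other MMP9 probes, both printed above, were well above background on 22 (O11977) and 12 (A_72_P440951) of 61 arrays, so they were not tested. Which strand of the gene O11977 carries was not settled here. Of 9 listed neutrophil markers, 5 were measured, and LTF was well above background on 61 arrays, S100A8 on 59, S100A12 on 55, ELANE on 51 and S100A9 on 44. MPO and PTX3 were so on 0 and 3 arrays. With age 1 of the 5 was higher and 1 lower, where 76.5% of all named genes were called. At day 110, 2 of the 5 were higher in MS than in LW and 0 lower, where 33.4% of all named genes were called. The median breed difference of the 5 was 1.14. Summed levels are the log2 of the markers' summed intensities, so the brightest probes weigh most. The median of this sum was 7.94 in LW and 7.91 in MS at day 90. At day 110 it was 7.88 in LW (7.17 to 8.92) and 8.74 in MS (7.93 to 9.61). The part of neutrophils in the MMP9 result was not tested.

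TIMP2, the inhibitor that also joins MMP14 to the MMP2 precursor, fell as those enzymes did. Its main probe O8835 read 15.57 ± 0.12 in LW (SD, n = 8, lowest 15.33, median 15.60, highest 15.72) and 15.64 ± 0.12 in MS (n = 8, lowest, median and highest 15.47, 15.62 and 15.81) at day 90. At day 110 it read 14.71 ± 0.17 in LW (n = 9, lowest 14.34, median 14.75, highest 14.96) and 14.29 ± 0.13 in MS (n = 7, lowest, median and highest 14.14, 14.34 and 14.45). Both crosses at day 110 lay near MS, at 14.36 ± 0.13 in LWMS (n = 8) and 14.35 ± 0.14 in MSLW (n = 5). The age difference was -0.87 in LW (SE 0.07), -1.34 in MS (SE 0.07), -1.26 in LWMS (SE 0.07) and -1.31 in MSLW (SE 0.08), and all were called. The second probe, A_72_P321983, did not show it. That probe differed between days by 0.05 over the genotypes (SE 0.04, adjusted p = 0.262), and the deviations of both probes within group and slide still correlated at 0.49 over 61 fetuses, which share arrays.

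TIMP1, a soluble inhibitor, changed less at its main probe A_72_P672674. It read 13.97 ± 0.19 in LW (SD, n = 8, lowest 13.71, median 13.95, highest 14.29) and 13.97 ± 0.09 in MS (n = 8, lowest, median and highest 13.84, 13.97 and 14.11) at day 90. At day 110 it read 13.72 ± 0.22 in LW (n = 9, lowest 13.35, median 13.74, highest 14.06) and 13.25 ± 0.22 in MS (n = 7, lowest, median and highest 12.94, 13.28 and 13.57). Days overlapped in LW and not in MS. TIMP1 fell by 0.72 in MS (SE 0.10), by 0.57 in LWMS (SE 0.09) and by 0.78 in MSLW (SE 0.11), while the difference of -0.26 in LW (SE 0.09) had an adjusted p of 0.0138. The 3 probes with the shared 56 bases gave differences of -1.002 to -0.94 over the genotypes, against -0.58 at the main probe, and were called in LW too, with -0.46 to -0.41. Under scaling by the 75th percentile of each array instead of quantile normalization, the main probe differed by 0.03 in LW and the calls in MS and LWMS were lost (adjusted p = 0.0374 and 0.115).

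TIMP3, the matrix-bound inhibitor, had 1 probe, which was lower at day 110 in the genotypes with an MS parent, under quantile normalization. It read 14.03 ± 0.11 at day 90 (SD, n = 8, lowest 13.91, median 14.02, highest 14.23) and 14.04 ± 0.22 at day 110 in LW (n = 9, lowest, median and highest 13.75, 14.07 and 14.41), a difference of 0.00 (SE 0.08, adjusted p = 0.991). In MS it read 14.20 ± 0.21 (n = 8, lowest, median and highest 13.84, 14.23 and 14.51) and 13.49 ± 0.18 (n = 7, lowest, median and highest 13.22, 13.54 and 13.70), with no overlap between days, a difference of -0.71 (SE 0.09, adjusted p = 5.8e-10). It was -0.49 in LWMS (SE 0.09, adjusted p = 1.6e-06) and -0.30 in MSLW (SE 0.10, adjusted p = 0.00708). The MSLW call was lost without MSLW fetus 1 or 4 of day 110 (adjusted p = 0.027 and 0.0287), and also with non-uniform spots kept (0.014), with no filter (0.0108) and with only the MSLW groups in the fit (0.0162). TIMP3 depended on the scaling. With the 75th percentile, its difference over the genotypes turned to 0.03, that in MSLW to 0.07 (adjusted p = 0.53) and that in LW to 0.31 (adjusted p = 0.000515), and the decreases in MS and LWMS were no longer called (adjusted p = 0.0362 and 0.509).

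LOX, which starts collagen and elastin cross-linking, was lower at day 110 by its main probe A_72_P400753. It read 12.10 ± 0.33 in LW (SD, n = 8, lowest 11.69, median 12.0004, highest 12.54) and 11.95 ± 0.16 in MS (n = 8, lowest, median and highest 11.73, 11.93 and 12.22) at day 90. At day 110 it read 11.35 ± 0.35 in LW (n = 9, lowest 10.90, median 11.43, highest 11.88) and 10.60 ± 0.14 in MS (n = 7, lowest, median and highest 10.39, 10.58 and 10.80). MS days did not overlap and LW days did. With all fetuses the difference was called in MS alone, a difference of -1.36 (SE 0.32, adjusted p = 0.000244), and differences were -0.75 in LW, -0.91 in LWMS and -0.57 in MSLW (adjusted p = 0.0321, 0.0107 and 0.178). With slide as a block LOX was called in LW and LWMS too (adjusted p = 0.00736 and 0.00599). Without the array that stood apart, SEs fell to between 0.12 and 0.15 and LOX was called in all 4 genotypes, with -0.75 in LW, -0.91 in LWMS and -1.14 in MSLW. The second LOX probe, A_72_P078971, fell in each genotype, with differences of -1.17 to -0.87. The G- and C-rich probe O6098, printed above, rose by 0.26 over the genotypes (SE 0.07, adjusted p = 0.000513).

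LOXL2, a relative of LOX that acts on basement membrane collagen, fell in every genotype. The main probe read 9.93 ± 0.21 in LW (SD, n = 8, lowest 9.61, median 9.95, highest 10.25) and 9.76 ± 0.18 in MS (n = 8, lowest, median and highest 9.56, 9.73 and 10.04) at day 90. At day 110 it read 8.97 ± 0.24 in LW (n = 9, lowest 8.52, median 9.03, highest 9.24) and 7.94 ± 0.33 in MS (n = 7, lowest, median and highest 7.45, 7.84 and 8.39). The crosses lay between, at 8.45 ± 0.29 in LWMS (n = 8) and 8.36 ± 0.25 in MSLW (n = 5, values 8.19, 8.29, 8.72, 8.11 and 8.49). All MS fetuses of day 110 were below all LW fetuses of that day. LOXL2 fell by 0.96 in LW (SE 0.12) and by 1.81 in MS (SE 0.12), which is 1.94-fold and 3.52-fold. The difference was -1.42 in LWMS (SE 0.12) and -1.55 in MSLW (SE 0.14), and both were called. Its second probe O9773 differed by -1.04 in LW and -0.61 in MSLW with all fetuses (adjusted p = 0.0642 and 0.375). Without the array that stood apart, these were -1.04 and -1.57 (adjusted p = 2.49e-10 and 3.16e-13).

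**Figure D1:**
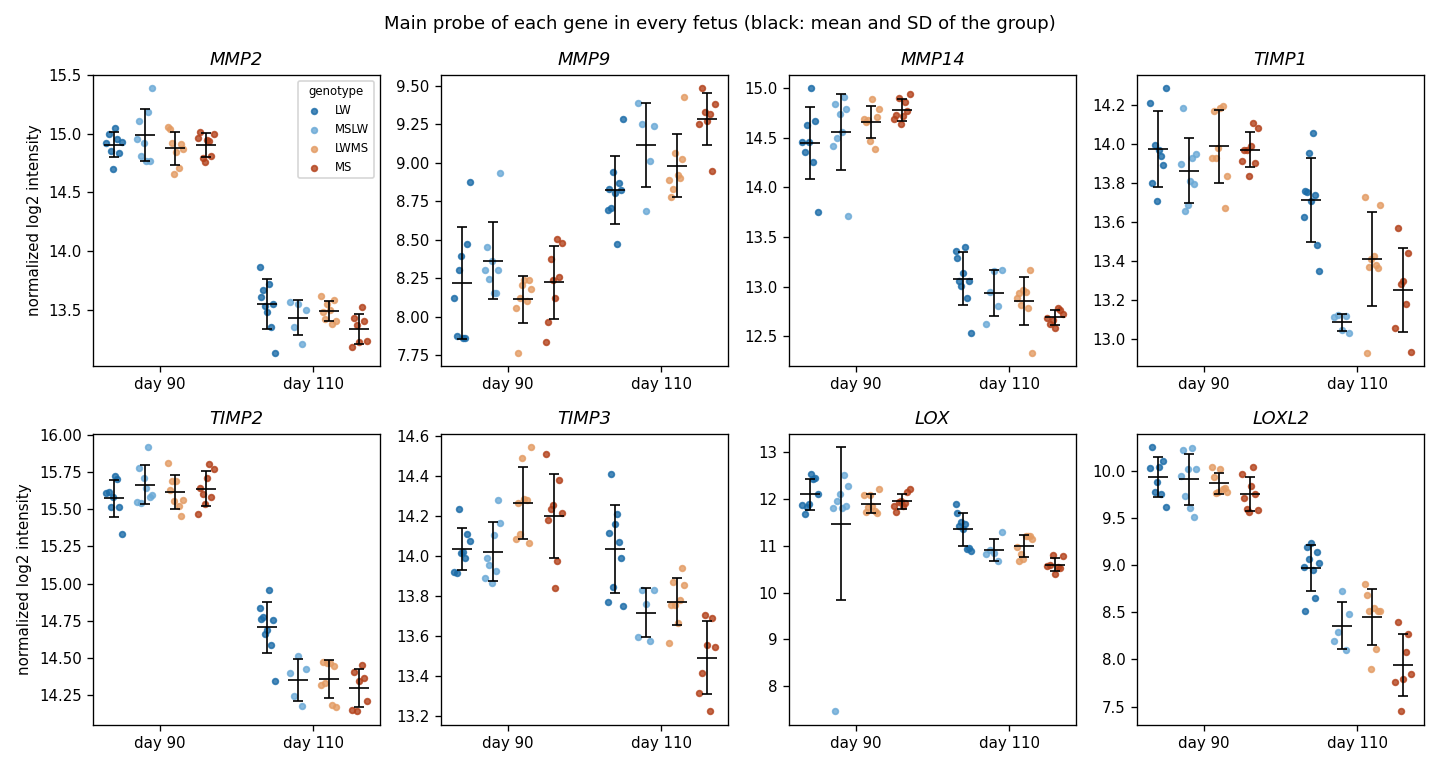
Normalized log2 intensity of the main probe of 8 genes in each of 61 fetuses, by day and genotype, with the mean and SD of each group in black. At day 110 every gene but MMP9 sat lower in MS, LWMS and MSLW than at day 90, while TIMP3 in LW stayed at 14.03 and 14.04, and 1 MSLW fetus of day 90 stands at 7.46 for LOX.

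The first comparison asked how late gestation changed these genes in each genotype. By main probe, 5 of 8 genes were called in LW, 1 higher and 4 lower, where 45.3% of all probes and 50.4% of named genes by main probe were called. In MS 8 of 8 were called (56.6% of all probes and 62.3% of named genes), in LWMS 7 of 8 (50.9% and 56.3%) and in MSLW 7 of 8 (44.6% and 50.5%). Without the array that stood apart, LOX was called as well, which makes 6 in LW, 8 in LWMS and 8 in MSLW. Averaged over the genotypes 8 of 8 were called, 7 lower and MMP9 higher, against 72.3% of all probes and 76.5% of named genes. The median difference was -1.05 over the members and 0.04 over all tested probes. Over all 17 kept probes, 16 were called in the average, 14 of them lower, and the probes that rose were those of MMP9 and LOX O6098. Within slides, the day 110 arrays were below the day 90 arrays on 8 of 8 slides for each gene but MMP9. For LOX that difference ranged from -1.16 to -0.02, its smallest size being on the slide with the array that stood apart, and from -1.16 to -0.83 without that array.

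The second comparison set the pure breeds against each other. At day 90, 0 of 8 genes were called, where 12.8% of all probes and 13.5% of named genes by main probe were. By limma, 1 of 8 had an unadjusted p under 0.05, MMP14, which was 0.33 higher in MS (SE 0.13, adjusted p = 0.0545). For this and later counts at unadjusted p under 0.05, the share of all probes was not counted. At day 110, 5 of 8 were called, against 29.0% of all probes and 33.4% of named genes by main probe. MMP9 was higher in MS by 0.46 (SE 0.12, adjusted p = 0.00181). TIMP1 was lower in MS by main probe, with a difference of -0.46 (SE 0.09, adjusted p = 7.87e-05). So were TIMP2 with -0.41 (SE 0.07), TIMP3 with -0.54 (SE 0.09) and LOXL2 with -1.03 (SE 0.12, adjusted p = 7.68e-10), the last being 2.04-fold lower in MS. MMP2 differed by -0.21 (adjusted p = 0.0322) and MMP14 by -0.39 (adjusted p = 0.0115). MMP14 was called with slide as a block (-0.42, adjusted p = 0.00411), with the filter on all arrays (0.00962) and with only LW and MS in the fit (0.00965). LOX differed by -0.75 with an adjusted p of 0.0522, and of 3.16e-06 without the array that stood apart, which makes 6 of 8 called. The second LOXL2 probe, O9773, differed by -1.12 and was called only without that array (adjusted p = 5.12e-10). On each of the 6 slides with both breeds at day 110, all 8 genes differed in the direction just given.

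TIMP1 differed between its probes in this comparison. The 3 probes with the shared 56 bases differed between MS and LW at day 110 by -0.90, -1.04 and -1.101, and the pair that differ by C36G by -0.42 and -0.46. All 5 were called. TIMP2 A_72_P321983 differed by 0.06 (adjusted p = 0.6), where O8835 was called. Scaling by the 75th percentile left 3 of 8 genes called at day 110, TIMP1 and TIMP2 no longer passing at -0.30 and -0.17 (adjusted p = 0.0194 and 0.0498). With the mean of both TIMP2 probes, TIMP2 differed by -0.18 (adjusted p = 0.0253).

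**Figure D2:**
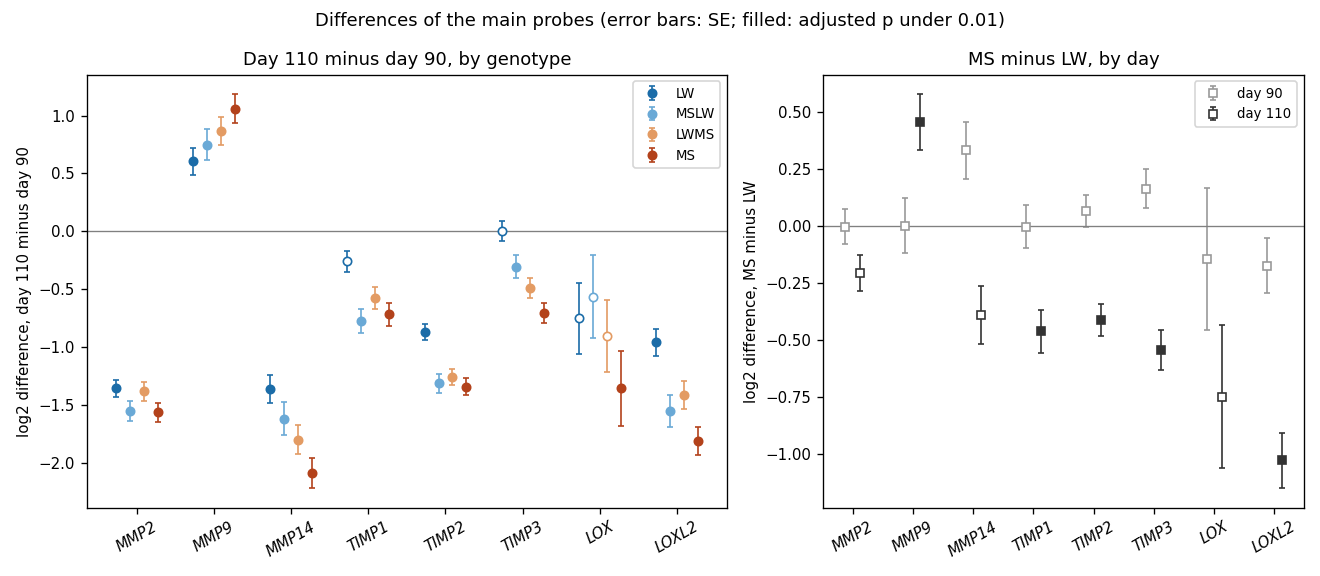
Log2 differences of the main probes with SE, day 110 minus day 90 by genotype on the left and MS minus LW by day on the right, filled where the adjusted p was under 0.01. In MS the age differences of MMP14, TIMP3 and LOXL2 (-2.09, -0.71 and -1.81) lie further down than in LW (-1.36, 0.00 and -0.96), and breed differences at day 90 are open symbols.

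Whether the age change was unequal in the pure breeds was then tested directly. It was called for 4 of 8 genes, where 5.96% of all probes and 9.76% of named genes by main probe were called. In each of the called members the decrease was larger in MS. The age change of MS minus that of LW was -0.72 for MMP14 (SE 0.18, adjusted p = 0.00444), -0.48 for TIMP2 (SE 0.10, adjusted p = 0.000719), -0.71 for TIMP3 (SE 0.12, adjusted p = 5.81e-05) and -0.86 for LOXL2 (SE 0.17, adjusted p = 0.000444). TIMP1 gave -0.46 at its main probe (adjusted p = 0.0149) and was called at the 3 probes with shared bases, with -0.80, -0.98 and -1.09. MMP9 gave 0.46 (adjusted p = 0.0627), MMP2 -0.21 (adjusted p = 0.226) and LOX -0.60 (adjusted p = 0.399, and 0.016 without the array that stood apart). With slide as a block MMP9 was called too, with 0.52 (adjusted p = 0.00652). TIMP1 was called at its main probe with non-uniform spots kept (-0.48, adjusted p = 0.00784) and with the mean of its probes (-0.82, adjusted p = 0.00017). Calls of MMP14 and TIMP2 were lost under other settings. MMP14 had an adjusted p between 0.0136 and 0.0154 with the median signal, with the deposited values, with another background correction and with 75th percentile scaling. TIMP2 had 0.165 with the latter, and 0.106 with the mean of its probes. LOXL2 was also at 0.106 with the mean of its probes, which includes the spot at 2.06. Its second probe O9773 gave -0.91, not called with all fetuses and called without the array that stood apart (adjusted p = 0.000467). The study chose its lists partly by the interaction of age with genotype in these data. The call at the LOXL2 main probe, named by those lists alone, is therefore not independent of that choice.

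**Figure D3:**
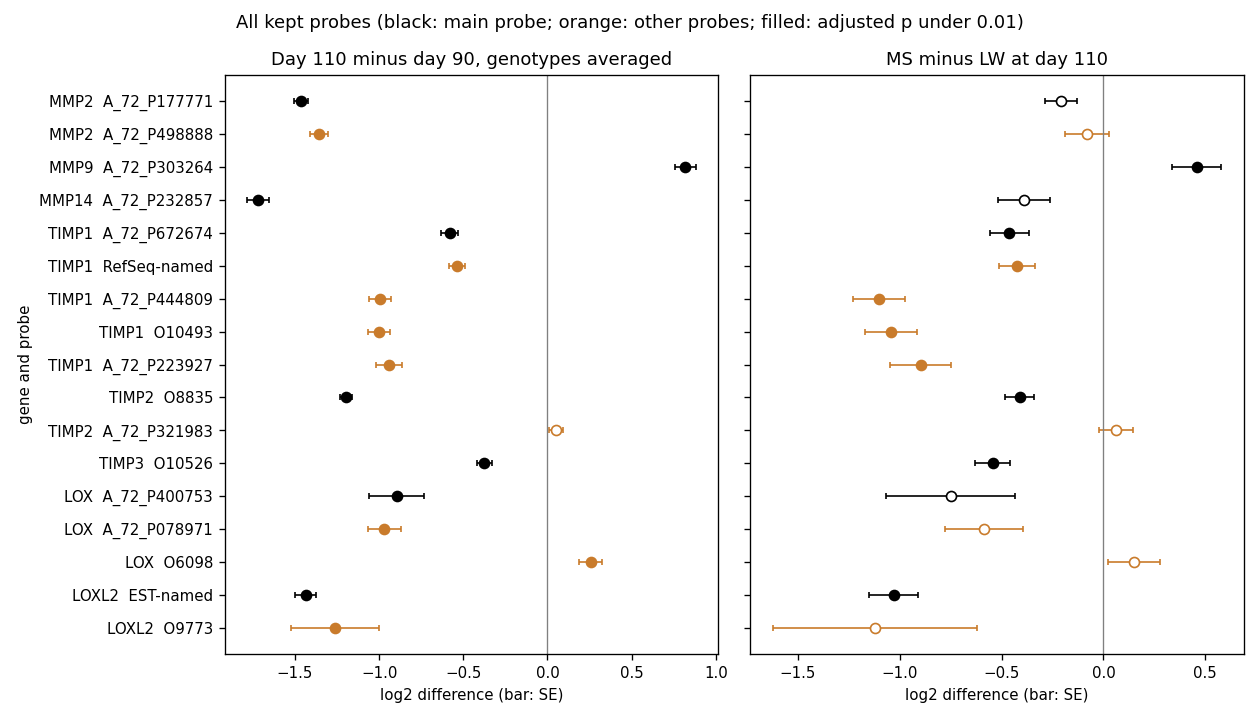
Log2 differences with SE of all 17 kept probes, averaged age difference on the left and MS minus LW at day 110 on the right, main probes in black and other probes in orange, filled where the adjusted p was under 0.01. The MMP2 probes lie at -1.47 and -1.36 in the age difference, whereas TIMP2 A_72_P321983 and LOX O6098 lie at 0.05 and 0.26, away from the other probes of those genes.

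Reciprocal crosses carry the same breeds with the parents exchanged. Between MSLW and LWMS, 0 of 8 genes were called at day 90, where 0.500% of all probes were, and 0 of 8 at day 110, where 0.917% were. By limma, unadjusted p under 0.05 was found for 2 genes at day 90, MMP9 and TIMP3, and for 1 at day 110, TIMP1. TIMP1 read 13.41 ± 0.24 in LWMS (SD, n = 8, lowest 12.93, median 13.39, highest 13.73) at day 110. In MSLW it read 13.12, 13.13, 13.05, 13.12 and 13.04. These lie closer together than in any other group. They lie within the LWMS range only through LWMS fetus 2 (12.93), the next LWMS value being 13.37. The difference of MSLW minus LWMS was -0.32 (SE 0.11, adjusted p = 0.0905), below 0 on all 5 slides with both crosses, and -0.37 at the RefSeq-named probe (adjusted p = 0.0291).

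Crosses were also set against the mean of the pure breeds. At day 90, 0 of 8 genes were called, where 0.0495% of all probes were, and 0 of 8 had an unadjusted p under 0.05 by limma. At day 110, 0 of 8 were called (0.0778% of all probes), and 2 of 8 had an unadjusted p under 0.05. These were TIMP1 and TIMP2, whose crosses differed from the mid-parent value by -0.23 (SE 0.07, adjusted p = 0.256) and -0.15 (SE 0.05, adjusted p = 0.431).

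In the model with age, maternal breed and paternal breed, the interaction of age with the sow's breed was called for TIMP3. This interaction varies only between litters, and its p-value does not measure the spread between sows. With an MS sow the change from day 90 to day 110 was 0.45 further down (interaction -0.45, SE 0.09, adjusted p = 0.000531). This made 1 of 8 genes called, where 3.04% of all probes and 5.01% of named genes by main probe were. Slide as a block made it 2 of 8, with MMP14 at -0.48 (adjusted p = 0.00708) against -0.45 without the block (adjusted p = 0.0201). By the boar's breed 0 of 8 genes were called, where 0.462% of all probes and 0.968% of named genes by main probe were. By limma, 6 of 8 had an unadjusted p under 0.05, but the share of all probes under it was not counted. LOXL2 came nearest with -0.49 (SE 0.12, adjusted p = 0.0265), at the probe named by the study's lists alone. The TIMP1 probes of identical sequence fell on different sides of the threshold here, and the difference between them was not tested. A_72_P444809 was called for the sow's breed, with -0.57 (adjusted p = 0.00356), and O10493 for the boar's, with -0.62 (adjusted p = 0.00466), while their values for the other parent were -0.53 and -0.37 (adjusted p = 0.0245 and 0.0628). The array that stood apart, where A_72_P444809 read 9.69 and O10493 read 10.49, changed none of these calls when left out. Within group and slide, deviations of this pair correlated at 0.84 over 61 fetuses.

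The order of the 8 group means differed between genes. For every gene but TIMP3 the 4 means of one day lay above the 4 means of the other. For MMP2 the only neighbours in the order that differed were LWMS at day 90 and LW at day 110 (adjusted p = 9.09e-22). In TIMP2 and LOXL2, LW at day 110 also differed from its lower neighbour, LWMS at day 110 (adjusted p = 0.000151 and 0.000943). For TIMP1 and TIMP3 no pair of neighbours passed, the lowest values being 0.0156 between LW and LWMS at day 110 for TIMP1 and 0.0103 between MSLW at day 90 and LWMS at day 110 for TIMP3. For LOX no pair passed with all fetuses. Without the array that stood apart, MSLW at day 90 moved from the fourth place (11.47) to the second (12.05), and LWMS at day 90 and LW at day 110 then differed (adjusted p = 0.000114). The lowest mean was that of MS at day 110 in MMP2, MMP14, TIMP2, TIMP3, LOX and LOXL2, and that of MSLW at day 110 in TIMP1.

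Other genes of matrix turnover, in lists chosen with earlier results of these data known, are described by their averaged age difference, for which 76.5% of all named genes were called with a median of 0.01. Of 18 other matrix metalloproteinases, 15 were on the array and 5 were tested, 3 higher and 1 lower. MMP3 (stromelysin) rose by 1.38 and MMP11 by 0.95, and MMP16, a membrane-bound enzyme like MMP14, fell by 1.25. Of 14 tested ADAM and ADAMTS proteases, 1 was higher and 9 lower, with -2.60 for ADAMTS16, -2.51 for ADAMTS8 and -1.43 for ADAMTS9. Of 10 genes in a list of other protease inhibitors and related proteins, 3 were higher and 6 lower. SPOCK3 fell by 2.87, SERPINF1 by 1.63 and the cathepsin inhibitor CST3 by 1.13. Among 10 protease activators and cathepsins, 5 were higher and 5 lower. PLAT, which activates plasminogen, rose by 1.38, the collagen-cutting cathepsin CTSK fell by 1.03 and CTSS fell by 0.98.

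Enzymes that modify and cross-link collagen went mostly down. Of 14 tested beside the members, 1 was higher and 11 lower, with a median of -0.81. FKBP10, a collagen chaperone, fell by 2.17, the prolyl hydroxylase subunit P4HA3 by 2.08 and the chaperone SERPINH1 by 1.72. Procollagen processing had 4 tested genes, 1 higher and 3 lower. PCOLCE, which enhances cutting of the procollagen C-terminus, fell by 1.48, its relative PCOLCE2 rose by 2.10 and TLL2 fell by 1.52. Of 18 tested matrix proteins, 15 fell and 0 rose, with a median of -0.82. The differences were -2.30 for FN1 (fibronectin), -2.12 for COL1A2 and -1.70 for COL3A1. Between the breeds at day 110, 11 of these 18 were lower in MS and 1 higher, and 9 of the 14 cross-linking enzymes were lower and 0 higher, where 33.4% of all named genes were called. P4HA3 was the furthest apart, by -2.54.

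**Figure D4:**
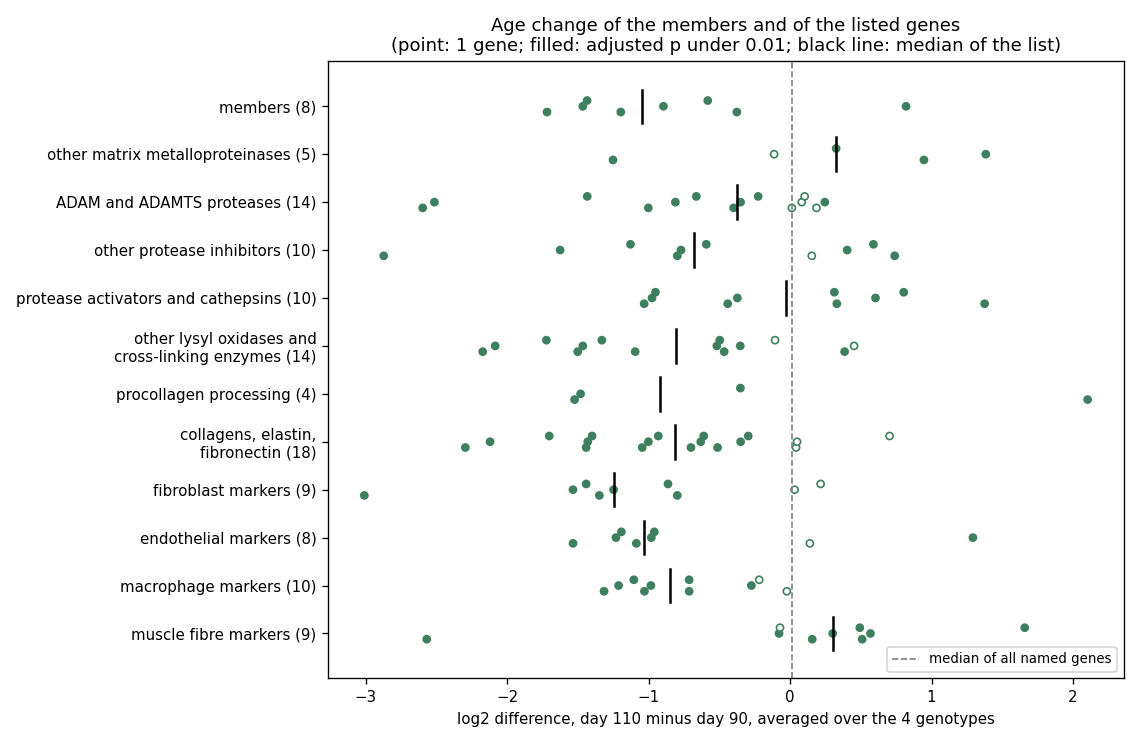
Averaged day 110 minus day 90 log2 difference of the members, of each listed gene and of markers of 4 cell types, 1 point per gene, filled where the adjusted p was under 0.01, with the list's median as a black line and the number of genes in brackets. The median was -1.05 for the members, -1.25 for fibroblast, -1.03 for endothelial, -0.85 for macrophage and 0.30 for muscle fibre markers. It was 0.33 for the other metalloproteinases.

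Markers of other cell types changed with age too, in both directions. With age, 76.5% of all named genes were called, against 77.8% of fibroblast, 87.5% of endothelial, 80% of macrophage and 77.8% of smooth muscle and pericyte markers. Between the breeds at day 110, 33.4% of all named genes were called. Of 10 fibroblast markers 9 were measured, TCF21 having no named probe, and 7 of these fell with age and 0 rose, with a median of -1.25. Their summed level, in which the brightest probes weigh most, ranged from 17.88 to 18.25 over the groups of day 90. At day 110 it ranged from 16.56 to 17.26 in LW, 16.17 to 16.42 in MS, 16.45 to 17.11 in LWMS and 16.51 to 17.05 in MSLW. Between the breeds at day 110, 4 of 9 fibroblast markers were lower in MS and 1 higher. Endothelial markers fell too, 6 of 8 measured being lower and 1 higher, with summed levels of 15.78 to 16.24 at day 90 and 14.53 to 15.38 at day 110. Of 10 measured macrophage markers 8 were lower, with summed levels of 13.33 to 13.86 at day 90 and 12.21 to 13.15 at day 110, while MMP9 rose. The smooth muscle and pericyte markers were split. Of 9 measured, 5 were lower and 2 higher with age, while their summed level had a median of 17.79 (LW) and 17.77 (MS) at day 90 and of 18.17 (LW) and 18.62 (MS) at day 110. Summed muscle fibre markers ranged from 20.85 to 21.00 and from 20.89 to 21.04. Erythroid, adipocyte and Schwann markers had median age differences of -0.69, -0.16 and 0.33. In whole muscle, fewer cells of a type and less RNA per cell cannot be told apart, and the part of these cells in the members' differences was not tested.

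After removal of group and slide means, the named genes most like each member over 61 fetuses were found among 8753 others, which share arrays with it. TIMP2 was most like MMP2 itself (r = 0.69), and TIMP2 and MMP14 reached 0.61, while MMP2 and MMP14 had 0.29. MMP2 was nearest to DCHS1 (0.75) and APOA1 (0.73), MMP14 to H3F3A (0.77) and DIP2B (0.75), and MMP9 to CRY2 and TG (both 0.80). TIMP1 was nearest to MIOS (0.63) and ETV1 (0.62), and without the array that stood apart to LGALS3 (0.62) and NKL (0.61). After MMP2, TIMP2 was nearest to SLC1A5 (0.67), TIMP3 to NEFM (0.67) and NOR-1 (0.63), and LOXL2 to DBN1 (0.74) and PIK3R2 (0.74). For LOX the values with ELN (0.94) and PRKCSH (0.92) rested on the array that stood apart, and without it were 0.64 and 0.42. The nearest genes to LOX were then NUPR1 (0.69) and COL11A2 (0.67). Without that array the second gene of MMP9, TIMP2 and TIMP3 became APOA5 (0.81), TM9SF1 (0.68) and SERINC3 (0.63).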

How the data were processed

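RNA of 61 fetuses was hybridised in 1 colour to 60-base oligonucleotide arrays on 8 slides. Per the labels, the authors scanned them with Agilent Feature Extraction 10.10.1.1. The deposited scanner files give intensities per spot, and the deposited table gives quantile-normalized log2 values, whose rows were matched by their row number in the scanner files (r of 0.977 to 0.993 with the values used here, within arrays). Column medians of that table were 8.09 to 8.10.

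From the background-corrected intensity, control spots and spots marked non-uniform (4 to 802 per array) were left out, and values were quantile normalized, log2 transformed and averaged per probe. A probe was kept if well above background on at least 80% of arrays of any group. The 8 groups were fitted in R 4.3.3 with limma 3.58.1 on 42436 probes, with Benjamini-Hochberg adjustment over all of them and a threshold of 1%. Parental interactions came from a model with age, maternal and paternal breed and their pairwise interactions. The sow, a random effect in the study, could not be fitted. The fit was also run on simulated data. Those had independent fetuses and no litter or slide effects, so that run cannot speak to shared litters.

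The array's files name no genome build, so no positions are given. Probe names came from the scanner files and the study's lists. Members and lists were chosen with earlier results of these data known. The main probe of a gene is its brightest kept probe. Listed genes named are the 3 with the largest averaged age difference that passed and had 1 sign in all genotypes (fewer only if fewer passed), and P4HA3 at day 110 was named after its value was seen. Likeness is Pearson's r, with the 2 highest genes named. The number of arrays limits the precision. Alternatives were another signal column, the deposited values, another background correction (normexp, offset 50), 75th percentile scaling, no filter or a filter on all arrays, keeping non-uniform spots, slide as a block, leaving out each MSLW fetus of day 110, fitting only the groups compared, and the mean of a gene's probes. Leaving out the array that stood apart was chosen after seeing the data. Sequences of the other member probes are not reported here.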

Additional observations from a re-analysis of the deposited data

Results flagged for a closer look

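Of 64 groups of values (8 genes in 8 groups), 7 held a fetus that lay apart from the rest by Dixon's criterion, which chance meets in about 1 of 20 groups. The gap to the nearest fetus over the group's range was 0.862 for LOX in MSLW at day 90, on the array that stood apart. For MMP9 it was 0.612 at the low end of LWMS at day 90, 0.615 at the high end of MSLW at day 90 and 0.557 at the high end of LWMS at day 110. For MMP14 it was 0.583 at the low end of MSLW at day 90 and 0.537 at the low end of LWMS at day 110, and for TIMP1 it was 0.548 at the low end of LWMS at day 110. MSLW fetus 8 of day 90 gave both the high MMP9 value (8.93, next 8.45) and the low MMP14 value (13.72, next 14.41), and LWMS fetus 8 of day 110 likewise (9.43 and 12.34). Both were on the same slide. On that slide LW fetus 8 of day 90 (8.88 and 13.75) and LW fetus 9 of day 110 (9.29 and 12.54) were also the highest for MMP9 and the lowest for MMP14 in their groups. The other arrays of that slide did not show this. MS fetus 8 of day 90 (8.48 and 14.94) and MSLW fetus 5 of day 110 (9.24 and 13.16) were the highest for MMP14 in their groups. LWMS fetus 8 of day 90 read 8.18 and 14.79.

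By the test of the interaction, the age change of MS fetuses minus that of LW fetuses was past the threshold for MMP14 (-0.72), TIMP2 (-0.48), TIMP3 (-0.71) and LOXL2 (-0.86). The LOXL2 value is from the probe named by the study's lists alone, which were chosen partly by such an interaction. For TIMP3 the interaction of age with the sow's breed was past it too (-0.45).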

How the results depend on the processing

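Of 219 counts of called members (14 comparisons under the alternatives that could be fitted to them), 216 stayed within 1.5 times the main count. With 75th percentile scaling, called members went from 5 to 3 for MS against LW at day 110 and from 4 to 2 for the unequal age change of the breeds. The median of all probes moved by under 0.1 in each comparison, but single members moved further. The age difference in MS went from -0.71 to -0.19 for TIMP3 and from -0.72 to -0.25 for TIMP1. With slide as a block, the count for age by maternal breed went from 1 to 2, and that of all probes from 1291 to 2144. Of 1572 single-gene values under an alternative, 1510 kept direction and side of the threshold, 19 lost the call, 21 gained it and 22 changed sign. Of those that changed sign, 2 had been called, both TIMP3 with 75th percentile scaling, at 0.0712 in MSLW and 0.0319 over the genotypes. Counts of all probes called left 1.5 times the main count, downwards, with the mean of a gene's probes, where fewer features are tested, for the unequal age change (2528 to 1518), reciprocal crosses at day 90 (212 to 122) and day 110 (389 to 233), age by maternal breed (1291 to 811) and age by paternal breed (196 to 118). For reciprocal crosses at day 110 the count was 239 without MSLW fetus 3 and 253 in the compared groups alone, and for age by paternal breed it was 307 without that fetus. Against the mid-parent value it went from 21 at day 90 and 33 at day 110 to 11 and 20 with the median signal or the deposited values, to 6 and 19 with normexp and to 4 and 9 with the filter on all arrays.

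The others had not been called. With 75th percentile scaling these were TIMP1 in LW (0.0334 for age), MMP9 between breeds at day 90 (-0.0047), MMP2 for the unequal age change (0.0011), TIMP2 between reciprocal crosses at day 110 (0.0177) and MMP2 for age by maternal breed (0.1045). The last was also above 0 with the median signal (0.0206), the deposited values (0.0199) and normexp (0.0083), and normexp gave -0.0219 for MMP9 between breeds at day 90. With slide as a block, TIMP3 for age in LW was -0.0138 and TIMP2 between reciprocal crosses at day 110 was 0.013. With non-uniform spots kept, the breeds at day 90 differed by 0.0236 for MMP2 and 0.0213 for TIMP1, and with the mean of a gene's probes by 0.0041 and 0.0353. That mean also gave -0.4459 for LOXL2 at day 90 and 0.0599 for LOX at day 110 between reciprocal crosses. Leaving out 1 fetus gave -0.4266 to 0.1463 for LOX between reciprocal crosses at day 90, the latter without the array that stood apart, and -0.0458 to 0.0389 for TIMP2 at day 110. The causes were not tested. Fetuses of different groups share slides, and slide as a block is the only matched analysis run. Fits to the compared groups alone do not exist for comparisons that use all groups. MMP9, MMP14 and TIMP3 each rest on 1 tested probe, and dim MMP9 probes gave no test.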
